A study of Mus musculus with 10 samples.

Results

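Mucins are the heavily glycosylated proteins of the airway surface, and their RNA was followed here in mouse tracheal epithelial organoids. Followed with it was the RNA of Gp2, of a mucin-folding enzyme and of regulators of mucus-making goblet cells. The 10 genes, chosen by symbol from a deposited table of counts per gene, were the secreted mucins Muc5ac and Muc5b, the membrane mucins Muc1, Muc4, Muc16 and Muc20, the membrane glycoprotein Gp2, the folding enzyme Agr2 and the transcription factors Spdef and Foxa3. All 10 had a row among the 22457 rows of the table, and 9 passed the filter on low counts, as did 13528 genes in all. Foxa3 did not pass it.

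Organoids were grown in Matrigel from cells of tracheal epithelial sheets, which the series calls basal cells, the progenitors of this epithelium; the labels' protocols name no sort for them. The groups are Ctrl and M3-CKO, the latter a knockout of Mettl3 going by the title of the series. Mettl3 encodes the enzyme that places the m6A mark on mRNA. RNA-seq covered 3 libraries of each group, taken on day 14. Both groups shared the MTEC/Plus medium, with insulin, transferrin, cholera toxin, epidermal growth factor, bovine pituitary extract, all-trans retinoic acid, A83-01, DMH-1 and serum, and with Y-27632 at first. A serum-free MTEC/SF medium is described for differentiation, and whether these organoids received it is not stated. The strain and age of the mice, the driver of the deletion and the deleted stretch of Mettl3 are likewise unstated. Nothing says that replicates were separate animals or cultures, and p-values then measure only the spread between these samples, which may be technical.

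Muc5ac and Muc5b form the mucus gel itself: they are stored in granules, released and hydrated at the cell surface. Membrane mucins stay anchored and build the glycocalyx between the cilia and that gel. Agr2 is a protein disulfide isomerase of the endoplasmic reticulum that mucin folding depends on, and Spdef and Foxa3 are transcription factors that drive goblet cell differentiation in airway epithelium. Gp2 is an anchored glycoprotein known from pancreatic granules and from M cells, the antigen-sampling cells of mucosal epithelia, where it binds fimbriated bacteria. In RNA from whole organoids, fewer cells of a type and less RNA per cell cannot be told apart.

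RefSeq start sites on GRCm38.p6 gave a promoter for 8 of the 10 genes. The 250 bases upstream of the start are printed for 4 of them, since the results turn on these genes. Gp2 passed the test described below with all libraries, and Muc1, Muc4 and Agr2 only with M3-CKO replicate 3 left out. The table of counts was made on mm39, so the positions below belong to the older build only. The windows are chr7:119459273-119459522 (minus strand) for Gp2, chr16:32735636-32735885 (plus strand) for Muc4, chr3:89228806-89229055 (plus strand) for Muc1 and chr12:35992675-35992924 (plus strand) for Agr2, each written 5′ to 3′ on the strand of the gene with matches to 4 motifs in capitals.
Gp2: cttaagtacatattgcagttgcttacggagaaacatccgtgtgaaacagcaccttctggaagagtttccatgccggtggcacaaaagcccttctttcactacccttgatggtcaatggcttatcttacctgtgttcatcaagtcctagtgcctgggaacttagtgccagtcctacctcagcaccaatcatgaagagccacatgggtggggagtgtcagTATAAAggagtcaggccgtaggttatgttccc
Muc4: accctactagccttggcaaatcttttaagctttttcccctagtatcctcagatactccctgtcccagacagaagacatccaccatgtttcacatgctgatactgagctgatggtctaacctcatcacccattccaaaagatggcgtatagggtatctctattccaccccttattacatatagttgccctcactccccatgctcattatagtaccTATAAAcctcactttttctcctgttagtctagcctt
Muc1: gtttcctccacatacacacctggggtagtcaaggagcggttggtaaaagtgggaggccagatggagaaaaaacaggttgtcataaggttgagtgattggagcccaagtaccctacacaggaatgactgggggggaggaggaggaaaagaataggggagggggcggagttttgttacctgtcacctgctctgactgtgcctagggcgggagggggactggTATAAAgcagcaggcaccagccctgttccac
Agr2: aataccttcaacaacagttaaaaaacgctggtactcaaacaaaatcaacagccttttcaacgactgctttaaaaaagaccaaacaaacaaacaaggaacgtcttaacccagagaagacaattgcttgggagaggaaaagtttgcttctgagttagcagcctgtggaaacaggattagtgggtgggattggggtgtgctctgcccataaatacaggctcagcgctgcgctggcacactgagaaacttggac

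The motifs were searched on both strands, and matches could overlap. They were the TATA box, spelled TATAAA, the forkhead core, spelled TNTTTAC, a core bound by SPDEF, spelled CCGGAT, and the AP-1 site, spelled TGANTCA. The TATA box stood 32 to 27 bases upstream of the start of Gp2, 36 to 31 bases upstream in Muc4 and Foxa3, and 31 to 26 bases upstream in Muc1. It was thus present in 4 of the 8 promoters, and 12.4% of all 32851 windows of this length held it on either strand. A forkhead core was found in Muc20, 248 to 242 bases upstream, and in Spdef, 47 to 41 bases upstream, and in 10.9% of all windows. The SPDEF core and the AP-1 site were found in 4.94% and 6.75% of all windows and in 0 of these 8. Agr2 and Muc16 held none of the 4 motifs. These matches describe letters in a window, and no binding was measured.

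Totals ran from 8906375 to 10485922 counts per library, so that 10 CPM (counts scaled to library size, with edgeR's TMM factors) rests on 87.6 to 104 counts. Where 3 values are given for a group, they are in the order of replicates 1, 2 and 3. Mettl3, the targeted gene, measured 14.96, 17.0 and 18.9 CPM among Ctrl libraries and 11.1, 10.3 and 9.87 CPM among M3-CKO libraries, and its log2 fold change of -0.70 had an edgeR adjusted p of 0.12, or 0.043 without M3-CKO replicate 3 (0.049 by DESeq2 with all libraries). M3-CKO replicate 3 stood apart from the rest of its group. Its Pearson r across genes of log2 CPM was 0.925 and 0.914 with replicates 1 and 2 and 0.928 to 0.932 with the Ctrl libraries, against 0.988 between M3-CKO replicates 1 and 2 and 0.971 to 0.980 among the Ctrl libraries. Nkx2-1, a transcription factor of lung and airway epithelium, stood at 209 to 266 CPM in all 6 libraries. Ptprc, the pan-leukocyte marker, had at most 2 counts in any, as did S100a8 and S100a9. Other genes listed as immune markers were present: Lyz2 at 357 to 1342 CPM, Cst3 at 138 to 283 CPM and Cd68 at 37.6 to 93.3 CPM. For the genes of the set whose call changed without M3-CKO replicate 3, fits with and without it are given. Calls without it are also given for some of the lists.

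Gp2 was higher in M3-CKO organoids. The Ctrl libraries held 52.7, 81.5 and 88.2 CPM and the M3-CKO libraries 969.9, 490.0 and 269 CPM. Each M3-CKO library thus lay above each Ctrl library, with M3-CKO replicate 3 the lowest of its group. The mean rose 7.77-fold, from 74.1 ± 18.8 (SD, n = 3) to 576 ± 358 CPM. The log2 difference was 2.96, with an SE of 0.47, a 95% interval of 1.87 to 4.05 and a Benjamini-Hochberg adjusted p of 0.029 in edgeR's quasi-likelihood test. Its p-value was number 127 in rank among the 13528 genes tested.

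Of the 9 tested genes of the set, 1 passed the test (adjusted p under 0.05), Gp2, and it was also the 1 gene whose groups did not overlap. Over all genes 2.91% were called, 1.74% as higher and 1.16% as lower in M3-CKO, and 27.1% had groups that did not overlap, 13.7% with M3-CKO above Ctrl and 13.5% below. An unadjusted edgeR p under 0.05 was reached by Gp2 alone of the 9 and by 20.5% of all genes. DESeq2 and limma-voom each called Gp2 alone of the 9 as well (adjusted p = 4.3e-09 and 0.034), where they called 10.4% and 2.23% of all genes. So did edgeR with DESeq2 size factors (3.01% of all genes called), with library size alone (3.1%), without the filter on low counts (3.3%) and with a stricter filter (3.48%).

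The Gp2 call needed nearly all of the libraries. Without Ctrl replicate 1, 2 or 3 its edgeR adjusted p was 0.13, 0.13 or 0.15, where 0%, 0.00716% or 0% of all genes were called. Without M3-CKO replicate 1 or 2 it was 0.076 in both cases, where 0.101% or 0.129% of all genes were called. Without M3-CKO replicate 3 it was 5.5e-04. The log2 fold change of Gp2 stayed between 2.36, without M3-CKO replicate 1, and 3.30, without M3-CKO replicate 3.

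**Figure D1:**
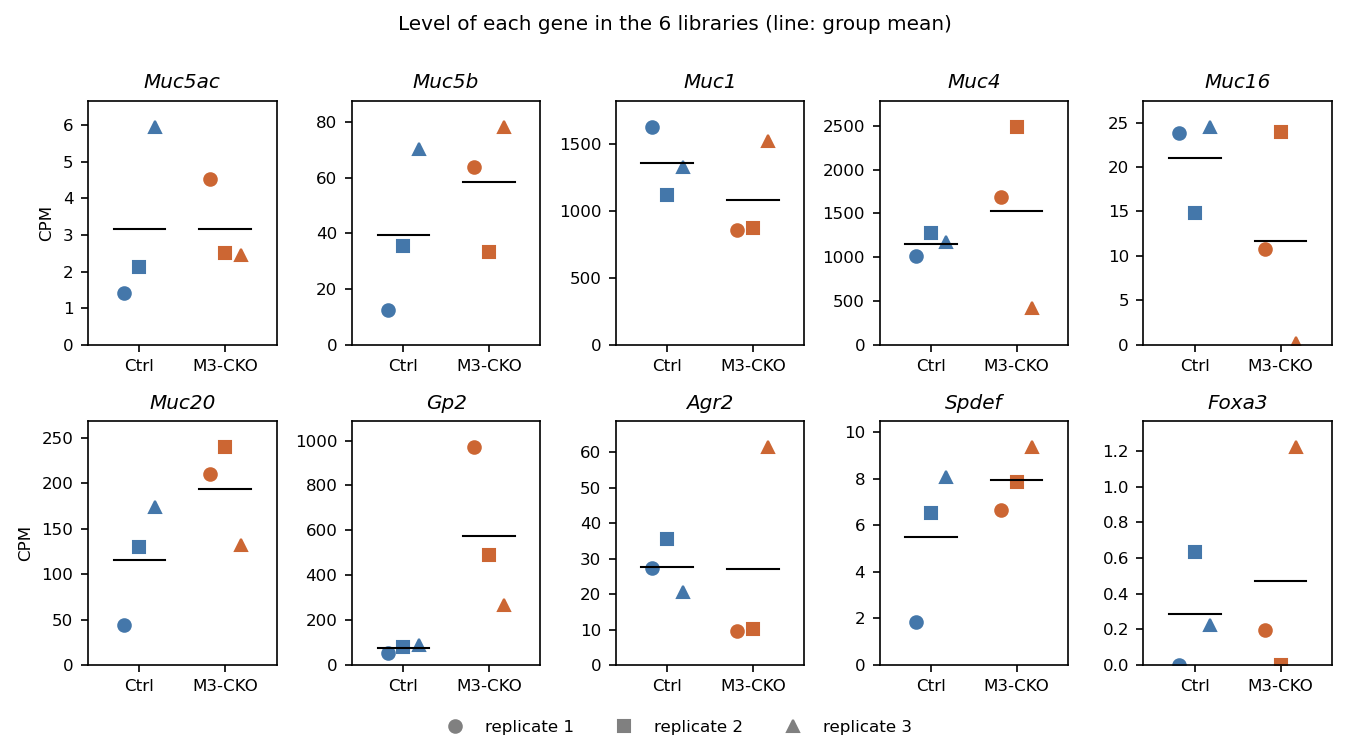
CPM (vertical axis, linear, from 0) of the 10 genes in the 3 Ctrl and 3 M3-CKO libraries, 1 panel per gene with its own scale; symbols mark the replicate and lines the group mean. The 3 M3-CKO points of Gp2, at 269 to 969.9 CPM, lie above its Ctrl points at 52.7 to 88.2, and in the other panels the groups overlap.

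The gel-forming mucins did not separate the groups. Muc5ac, the mucin of surface goblet cells, had few counts: 13, 20 and 53 among Ctrl libraries and 47, 22 and 24 among M3-CKO libraries, or 1.42, 2.11 and 5.95 CPM against 4.54, 2.51 and 2.44. The highest and the lowest library were both Ctrl. The log2 fold change of Muc5ac was 0.0063, with an SE of 0.59 and an edgeR adjusted p of 0.997. Its 95% interval ran from -1.36 to 1.38, so a change of over 2-fold either way lies within it.

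Muc5b, the other airway gel mucin, had 12.4, 35.5 and 70.4 CPM among Ctrl libraries and 63.9, 33.3 and 78.1 CPM among M3-CKO libraries. The Ctrl libraries spanned 5.66-fold, more than the 2.34-fold of the M3-CKO libraries, and the groups overlapped. The means were 39.5 ± 29.2 and 58.5 ± 22.9 CPM (log2 fold change 0.57, 95% interval -0.76 to 1.89, edgeR adjusted p = 0.63). Ctrl replicates 1 and 3 and M3-CKO replicates 2 and 3 each moved this value by over 1.5 times: it was 0.15 and 1.28 without the Ctrl libraries in turn, and 0.86 and 0.30 without the M3-CKO libraries in turn.

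Among the membrane mucins, Muc4, a large mucin that binds the receptor ErbB2, spread more within M3-CKO than between the groups. Its Ctrl libraries were close together at 1012, 1273 and 1169 CPM. M3-CKO replicates 1 and 2 lay above all of them at 1681 and 2485 CPM, and M3-CKO replicate 3 below all of them at 423 CPM, a 5.88-fold span within the group. Over all libraries Muc4 had a log2 fold change of 0.41, with an SE of 0.53 and an edgeR adjusted p of 0.72. Leaving out M3-CKO replicate 3 gave 0.85 (SE 0.19, adjusted p = 0.014), and leaving out M3-CKO replicate 2 gave -0.11. The spans of Muc4 and Muc20 overlap on opposite strands in the RefSeq annotation of GRCm38.p6, and a noncoding gene, Gm34825, also lies across Muc4. Whole spans were compared, not exons, and no strand setting of the counting is stated. Some reads of these neighbours may therefore be shared or dropped, which was not tested.

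Muc20, a small membrane mucin linked to the receptor Met, had 43.7, 130.3 and 174 CPM among Ctrl libraries and 211, 239.7 and 132 CPM among M3-CKO libraries. M3-CKO replicates 1 and 2 lay above the Ctrl range and replicate 3 within it. The log2 fold change was 0.74 (95% interval -0.33 to 1.82, edgeR adjusted p = 0.41). It was 0.36 without Ctrl replicate 1, the lowest library, and 1.15 without Ctrl replicate 3. Without M3-CKO replicate 3 it was 0.96 (edgeR adjusted p = 0.15).

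Muc1, whose cytoplasmic tail takes part in signalling, went the other way in the same libraries. The Ctrl libraries held 1628, 1119 and 1327 CPM. M3-CKO replicates 1 and 2 lay below that range at 855 and 874 CPM, and M3-CKO replicate 3 within it at 1526 CPM. The means of 1358 ± 256 and 1085 ± 382 CPM differed by a log2 fold change of -0.32, with an SE of 0.27 and an edgeR adjusted p of 0.56. With M3-CKO replicate 3 left out it was -0.66 (SE 0.17, adjusted p = 0.028). It was -0.17 without Ctrl replicate 1 and -0.18 without either of M3-CKO replicates 1 and 2.

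Muc16, the largest membrane mucin, was nearly absent from 1 library. It had 218, 140 and 218 counts among Ctrl libraries, 112 and 210 in M3-CKO replicates 1 and 2, and 2 in M3-CKO replicate 3. These are 23.8, 14.8 and 24.5 CPM against 10.8, 24.0 and 0.203. M3-CKO replicate 2 sat among the Ctrl libraries and replicate 1 under them. Muc16 had a log2 fold change of -0.86, with an SE of 0.98 and an edgeR adjusted p of 0.68. This value was -0.28 without M3-CKO replicate 3, -1.90 without M3-CKO replicate 2 and -2.39 with limma-voom.

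Agr2, the mucin-folding enzyme, had almost equal group means, 27.8 ± 7.44 CPM in Ctrl and 27.0 ± 29.8 in M3-CKO, over libraries that lay far apart. The Ctrl libraries held 27.3, 35.4 and 20.6 CPM. M3-CKO replicates 1 and 2 lay below all of them at 9.56 and 10.2 CPM, and M3-CKO replicate 3 above all of them at 61.4 CPM. Over all libraries Agr2 had a log2 fold change of -0.04, with an SE of 0.69 and an edgeR adjusted p of 0.985. With M3-CKO replicate 3 left out it was -1.50 (SE 0.25, adjusted p = 0.0051), and without M3-CKO replicate 1 or 2 it turned to 0.37 or 0.36.

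The goblet cell transcription factors had few counts. Spdef had 17, 62 and 72 counts among Ctrl libraries and 69, 69 and 92 among M3-CKO libraries, or 1.86, 6.55 and 8.09 CPM against 6.66, 7.87 and 9.36. Ctrl replicate 1 was the lowest, and the other 5 libraries overlapped. The log2 fold change of Spdef was 0.53 (95% interval -0.63 to 1.69, edgeR adjusted p = 0.60), and 0.12 or 0.91 without Ctrl replicate 1 or 3. Foxa3 had 0, 6 and 2 counts among Ctrl libraries and 2, 0 and 12 among M3-CKO libraries. A difference in Foxa3 was not detectable at this depth.

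**Figure D2:**
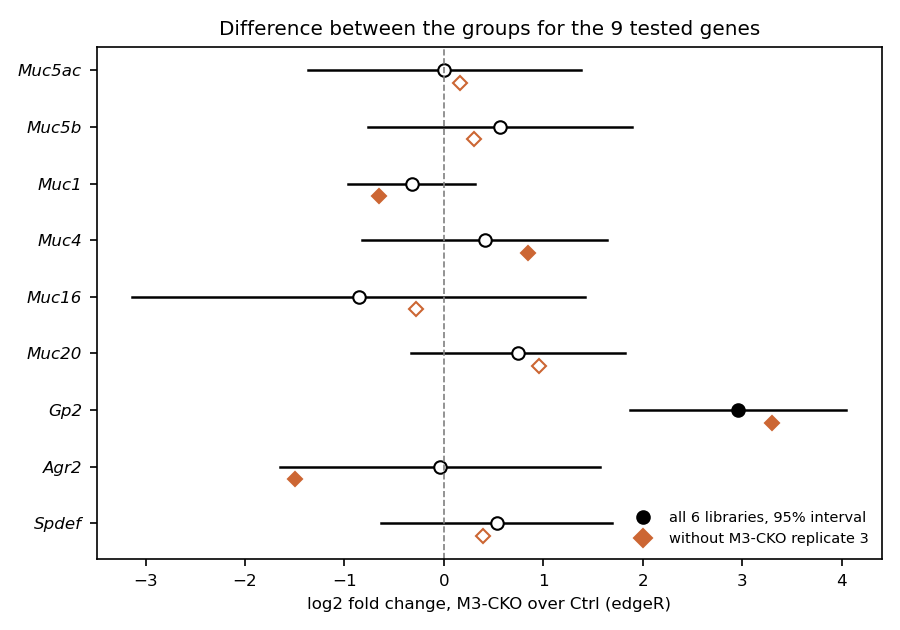
Log2 fold change, M3-CKO over Ctrl (horizontal axis), of the 9 tested genes: circles use all 6 libraries with their 95% interval, diamonds leave out M3-CKO replicate 3, and filled symbols passed an adjusted p of 0.05. Gp2 is called in both fits, and Muc1, Muc4 and Agr2 are called without M3-CKO replicate 3.

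For Muc1, Muc4, Muc20 and Agr2, M3-CKO replicates 1 and 2 thus lay beyond the Ctrl range on the same side and replicate 3 did not. This held for 4 of the 9 tested genes and for 29.7% of all genes. In Muc4 and Agr2, 2 of the 9, replicate 3 lay beyond the Ctrl range on the opposite side, as in 16.3% of all genes. The SD of log2 CPM was larger among M3-CKO than among Ctrl libraries for 5 of the 9 and for 65.7% of all genes. Without M3-CKO replicate 3, 4 of the 9 were called, where 25% of all genes were: Gp2 and Muc4 as higher (13.7% of all genes) and Muc1 and Agr2 as lower (11.3%). The median log2 fold change of the 9 was 0.41 with all libraries and 0.30 without M3-CKO replicate 3, and over all genes tested it was 0.02 with all libraries. None of these shares was tested against that over all genes.

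Markers of other airway cells moved between the same libraries. The 16 club cell genes, which mark the secretory cells that also make Muc5b, summed to 10740.5, 9932 and 10319.5 CPM among Ctrl libraries and 6716, 6142 and 12898 CPM among M3-CKO libraries. Cbr2 and Cyp2f2, singled out once their values were seen, had the highest group means of the list and weigh most in these sums. Their means were 3875 and 2641 CPM in Ctrl and 2405 and 1760 CPM in M3-CKO. Of the 16 genes, 13 were higher in M3-CKO replicate 3 than in the mean of replicates 1 and 2. Agr2 was too, as were 6859 of the 13528 tested genes. The median log2 fold change of the list was -0.10, with 8 of 16 positive, and 1 gene was called over all libraries, Scgb1a1. It had 51, 41 and 25 counts among Ctrl libraries and 862, 329 and 3525 among M3-CKO libraries (log2 fold change 5.23, edgeR adjusted p = 0.033). The adjusted p was 0.091 by limma-voom and, by edgeR, 0.10 without M3-CKO replicate 1 and 0.13 to 0.17 without 1 Ctrl library. Without M3-CKO replicate 3, edgeR called 2 of the list higher and 6 lower, with a median of -0.73, where 13.7% and 11.3% of all genes were. Of 14 basal cell genes 3 were called with all libraries, the keratins Krt15, Krt5 and Krt14, all lower, where 2.91% of all genes were called. The list summed to 3426 to 4176 CPM in Ctrl and 1910.3 to 2892 CPM in M3-CKO. Without M3-CKO replicate 3, edgeR called 1 of the 14 higher and 10 lower, and the median moved from -0.75 to -1.31. Of 12 tested hillock and squamous genes, Krt4 and Sprr1a were called lower and Lor higher with all libraries. Lor had only 4, 0 and 3 counts among Ctrl libraries and 70, 38 and 84 among M3-CKO libraries. The median of this list was -0.83. All M3-CKO libraries lay above all Ctrl libraries for 3 of the 12 and below for 5, where 13.7% and 13.5% of all genes did. Of these 6 calls of keratins, Sprr1a and Lor, 5 were lost without any 1 library other than M3-CKO replicate 3; that of Krt15 was lost without M3-CKO replicate 1 or any 1 Ctrl library. The part of these markers in the values of Gp2, Agr2 and the mucins was not tested.

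M cell markers were looked up because Gp2 marks these cells. Of 15 listed, 13 had a row, all but Spib and C5ar1. Of these 9 were tested and 1 was called, where 2.91% of all genes were. Tnfrsf11a, the receptor RANK, whose ligand induces M cells, had 17.0, 28.3 and 24.8 CPM among Ctrl libraries and 47.0, 58.5 and 61.4 CPM among M3-CKO libraries, without overlap. It rose by a log2 fold change of 1.25 (SE 0.23, edgeR adjusted p = 0.037), and the adjusted p was 0.11 to 0.17 without any 1 library other than M3-CKO replicate 3. The median of the list was 0.34, with 8 of 9 positive, where 51.9% of all genes were. An unadjusted edgeR p under 0.05 was reached by 1 of the 9, and by 20.5% of all genes. Without M3-CKO replicate 3 the median was 0.16, and edgeR called 2 higher and 1 lower, where 13.7% and 11.3% of all genes were. Sox8, a factor of M cell maturation, had 0 counts in Ctrl and at most 2 in any M3-CKO library, and Onecut2 had at most 6 counts in any library. The list summed to 1144, 889 and 823 CPM among Ctrl libraries and 854, 896 and 1846 CPM among M3-CKO libraries. Of the last of these sums the kinase gene Sgk1, singled out once its values were seen, made up 1139 CPM. In M3-CKO replicates 1 and 2 Sgk1 had 63.7 and 64.0 CPM, under its 139 to 310 CPM among Ctrl libraries. Its positive log2 fold change of 0.96 thus rests on M3-CKO replicate 3. The part of M cells in the rise of Gp2 was not tested.

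Of the other genes of mucus production, 5 lists were set beside these genes. Other mucin genes had rows for 11 of 17, with 6 tested. Of these edgeR called 1 lower and 0 higher, where it called 1.16% and 1.74% of all genes. An unadjusted edgeR p under 0.05 was reached by 3, and by 20.5% of all genes. DESeq2 called 2, both lower, and limma-voom called 1, where they called 10.4% and 2.23% of all genes. Muc2, the gel-forming mucin best known from the intestine, had 199, 209.9 and 142 CPM among Ctrl libraries and 43.6, 53.3 and 94.4 CPM among M3-CKO libraries, without overlap. It fell by 1.53 on the log2 scale (SE 0.31, edgeR adjusted p = 0.047). The adjusted p was 0.053 with library sizes alone, 0.14 to 0.17 without any 1 library other than M3-CKO replicate 3, and 7.7e-04 without that one. The membrane mucin Muc21 had 51.3, 96.5 and 63.6 CPM among Ctrl libraries and 17.3, 24.4 and 2.64 CPM among M3-CKO libraries (log2 fold change -2.26, SE 0.66, adjusted p = 0.11). Muc21 was picked once its values were seen. The median of the list was -0.31.

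Enzymes that attach and extend the O-linked sugars of mucins mostly had positive log2 fold changes, 19 of 24, where 51.9% of all genes did. The median of the list was 0.52, though edgeR called 1, where it called 2.91% of all genes. All M3-CKO libraries lay above all Ctrl libraries for 11 of the 24, and for 13.7% of all genes. An unadjusted edgeR p under 0.05 was reached by 11, and by 20.5% of all genes. DESeq2 called 8, all higher, and limma-voom called 0, where they called 10.4% and 2.23% of all genes. Without M3-CKO replicate 3, edgeR called 12 higher and 1 lower, where 13.7% of all genes were called higher and 11.3% lower. The gene called with all libraries was St6gal1, a sialyltransferase known to act mainly on N-linked rather than O-linked sugars, with 2.95, 3.49 and 3.93 CPM among Ctrl libraries and 37.8, 25.1 and 10.3 CPM among M3-CKO libraries. It rose by a log2 fold change of 2.81 (SE 0.48, edgeR adjusted p = 0.033). The adjusted p was 0.080 with limma-voom and 0.095 to 0.16 without any 1 library other than M3-CKO replicate 3.

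Fut2, the fucosyltransferase of secretor tissues, had 0, 2.11 and 1.57 CPM among Ctrl libraries and 16.8, 22.6 and 11.0 CPM among M3-CKO libraries (log2 fold change 3.75, SE 0.82, edgeR adjusted p = 0.057). Galnt1, which starts O-glycan chains, had 72.8 ± 15.7 and 131 ± 7.18 CPM (0.85, adjusted p = 0.061), and Galnt5, of the same family, 57.2 ± 4.86 and 86.9 ± 9.72 CPM (0.60, adjusted p = 0.081). These 3 enzymes did not overlap between the groups and did not pass the test. They were picked once their values were seen.

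**Figure D3:**
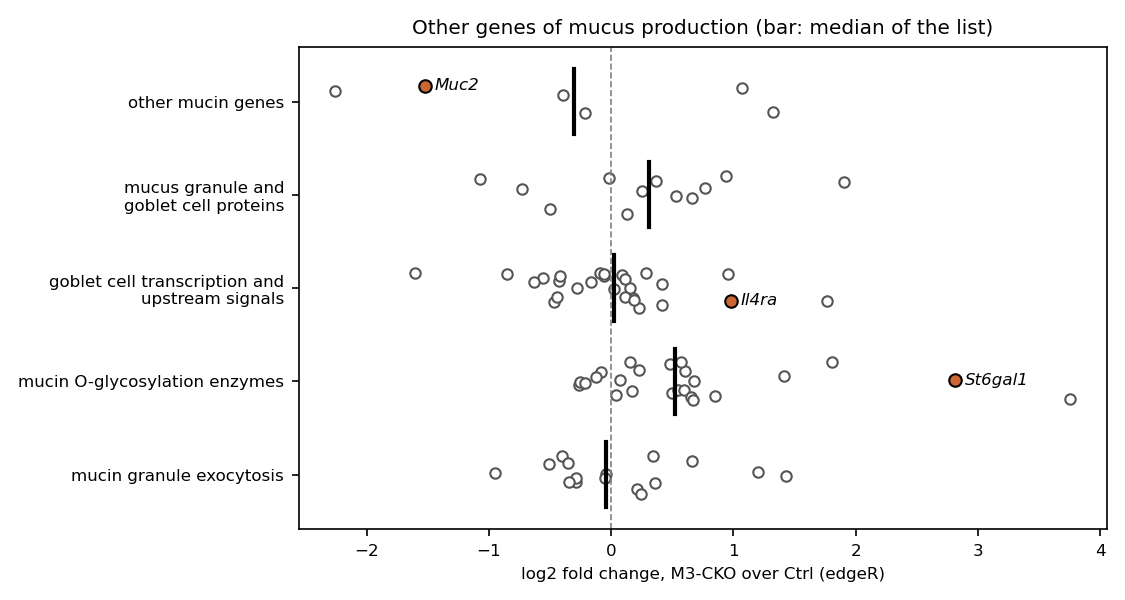
Log2 fold change, M3-CKO over Ctrl (horizontal axis), of every tested gene of the 5 lists (1 row per list, points spread vertically for legibility); filled and named points passed an adjusted p of 0.05 and the bar is the median. The O-glycosylation enzymes have a median of 0.52, and the other 4 lists medians from -0.31 to 0.31.

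Signals and transcription factors around goblet cells gave 1 called of 27, Il4ra, the receptor chain through which the type 2 interleukins induce mucus. It had 115, 81.6 and 102 CPM among Ctrl libraries and 185, 199 and 207 CPM among M3-CKO libraries, without overlap (log2 fold change 0.98, SE 0.17, edgeR adjusted p = 0.034). The adjusted p was 0.098 to 0.17 without any 1 library other than M3-CKO replicate 3. The median of the list was 0.03, with 14 of 27 positive, where 51.9% of all genes were. With all libraries edgeR called 2.91% of all genes. Without M3-CKO replicate 3 it called 3 of the list higher and 4 lower, where 13.7% and 11.3% of all genes were. Sox9, a progenitor and gland factor, had 18.6, 11.1 and 12.0 CPM among Ctrl libraries and 77.0, 53.5 and 11.2 CPM among M3-CKO libraries (1.76, SE 0.61, adjusted p = 0.16). M3-CKO replicate 3 thus lay among the Ctrl libraries for Sox9, which was picked once its values were seen. Il33 and Stat6, picked likewise, were lower without overlap (log2 fold changes -1.61 and -0.42, edgeR adjusted p = 0.069 and 0.13). All M3-CKO libraries lay below all Ctrl libraries for 5 of the 27 and above for 1, where 13.5% and 13.7% of all genes did. An unadjusted edgeR p under 0.05 was reached by 6, and by 20.5% of all genes. DESeq2 called 2 higher and 2 lower, where it called 10.4% of all genes.

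Mucus granule and goblet cell proteins gave 0 called of 12 by edgeR, with 5 at an unadjusted p under 0.05, where 2.91% and 20.5% of all genes were. DESeq2 called 2 higher and 1 lower, and limma-voom called 0, where they called 10.4% and 2.23% of all genes. The lowest p was that of the transglutaminase Tgm2, with 848 ± 289 CPM for Ctrl and 403 ± 30.8 for M3-CKO (log2 fold change -1.08, SE 0.25, edgeR adjusted p = 0.065). Clca1, a protease secreted with mucus, had 192, 179 and 61 counts among Ctrl libraries and 436, 334 and 934 counts among M3-CKO libraries, without overlap (1.90, SE 0.50, adjusted p = 0.085). Fcgbp, a mucin-associated protein, had 213 ± 54.3 and 129 ± 37.2 CPM (-0.73, SE 0.28, adjusted p = 0.19). Pigr, with 3770 ± 1134 and 6410 ± 548 CPM, and Kcnk5 were higher without overlap (0.77 and 0.66, edgeR adjusted p = 0.14 for each). Clca1, Fcgbp, Pigr and Kcnk5 were picked once their values were seen. All M3-CKO libraries lay above all Ctrl libraries for 3 of the 12 and below for 1, where 13.7% and 13.5% of all genes did. The median of the list was 0.31 and turned to -0.07 without M3-CKO replicate 3.

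The exocytosis machinery of mucin granules gave 0 called of 16 by edgeR and by limma-voom, with 4 at an unadjusted p under 0.05, and DESeq2 called 1, lower. The lowest p was that of Rab27a, a granule-docking GTPase, with 403 ± 65.3 and 209.2 ± 48.3 CPM (log2 fold change -0.95, SE 0.22, edgeR adjusted p = 0.066). The median of the list was -0.05, with 7 of 16 positive. Without M3-CKO replicate 3, edgeR called 4 of the list higher and 3 lower, where 13.7% and 11.3% of all genes were. Markers of multiciliated cells gave 0 called of 12 by edgeR and by limma-voom, with 3 at an unadjusted p under 0.05, and DESeq2 called 2. Their lowest p was that of Myb (-1.12, adjusted p = 0.092). Immune markers gave 0 called of 5 by both, with 1 at an unadjusted p under 0.05, and DESeq2 called 1. Their lowest p was that of Cd74 (1.56, adjusted p = 0.13). Over all genes, 20.5% had an unadjusted edgeR p under 0.05, and edgeR, DESeq2 and limma-voom called 2.91%, 10.4% and 2.23%.

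For the 3 genes of the set with the highest mean CPM, the genes of closest pattern were sought among 10507 others with a mean of at least 5 CPM. The measure was the root mean square difference of log2(CPM + 0.5), centred over the 6 libraries, which share their depth and the standing of M3-CKO replicate 3. Nearest to Gp2 were the sialyltransferase gene St6gal1 (0.24), Basp1 (0.33) and Lrfn1 (0.35), where the root mean square deviation of Gp2 itself was 1.51. Basp1 and Lrfn1 had log2 fold changes of 3.33 and 2.84, a direction that their choice by the pattern of Gp2 fixes. Nearest to Muc4, with a deviation of its own of 0.78, were the chloride transporter gene Slc26a9 (0.13), the bacterial sensor Nod2 (0.15) and the cell cycle kinase gene Wee1 (0.16). Nearest to Muc1, with a deviation of its own of 0.36, were Ndufb9 (0.061), Sar1b (0.061) and Rabac1 (0.068). All 9 were chosen on the libraries compared, so their likeness carries no test.

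**Figure D4:**
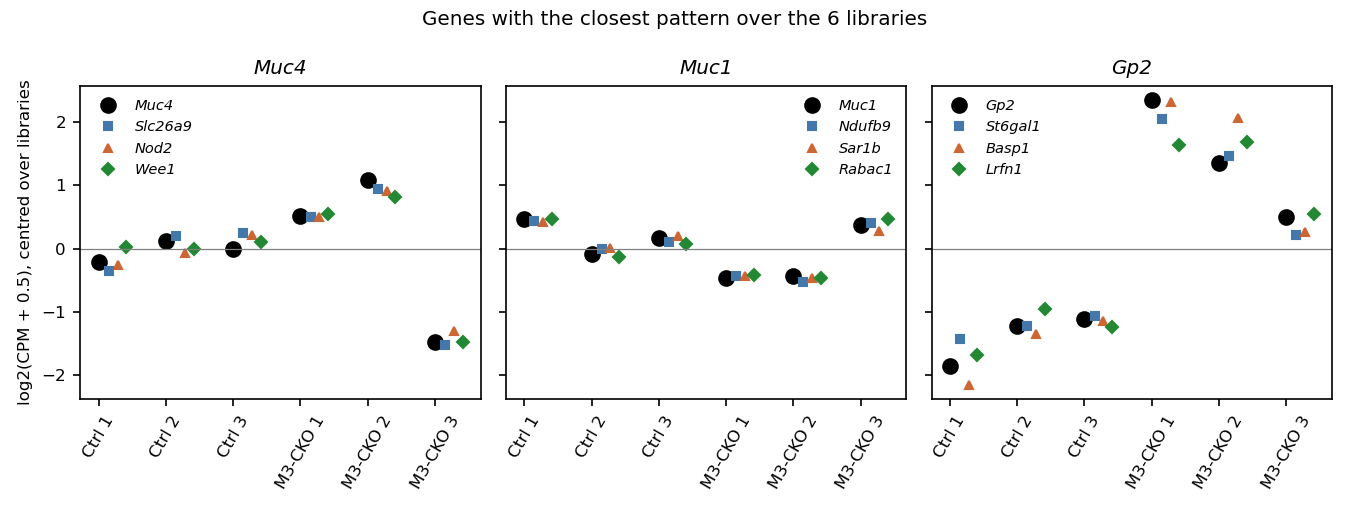
Log2(CPM + 0.5), centred over the 6 libraries (vertical axis), of Muc4, Muc1 and Gp2 (black circles) and of the 3 genes closest to each (coloured symbols, offset sideways) in every library. All 4 genes of the Muc4 panel are lowest in M3-CKO replicate 3, and all 4 of the Gp2 panel are higher in each M3-CKO library than in each Ctrl library.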

How the data were processed

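The authors deposited whole-number counts per gene symbol for the 6 RNA-seq libraries, with no normalization. The submitters' processing notes list Trim Galore, HISAT2, featureCounts and mm39, with no versions, annotation or strand setting; multi-mapped reads are not described. The 4 m6A immunoprecipitation and input libraries were not analysed here. Counts were tested with edgeR 4.0.16 (R 4.3.3): filterByExpr, TMM factors and the two-sided quasi-likelihood F test of M3-CKO against Ctrl without covariates, Benjamini-Hochberg adjusted over all 13528 genes and called under 0.05. SE is the size of the log2 fold change divided by the root of F. CPM rests on TMM-scaled library sizes. Total counts were 8906375 to 10485922 per library, which limits genes of few counts.

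The 10 genes and all lists were chosen with earlier results of these data known. Named genes are Mettl3, the 10 genes, up to 4 called members of each list by lowest adjusted p (else the member with the lowest p), and the 3 closest patterns for the 3 genes with the highest mean CPM; others are marked. In the exocytosis list 1 gene is not reported here. Alternatives were DESeq2 1.42.0 (size factors; Wald test), limma 3.58.1 voom, library size alone, no filter or a stricter one (10 counts in each library of 1 group), a replicate block and leaving out each library. In data of 13528 genes simulated for this comparison, with 50 changed genes per fold size, edgeR recovered 18% at 2-fold, 66% at 4-fold, 98% at 8-fold and 86% at 16-fold. Promoter sequences come from RefSeq, GRCm38.p6.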

Additional observations from a re-analysis of the deposited data

How the results depend on the processing

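Between 302 and 456 genes were called with DESeq2 size factors, library size alone, limma-voom or the stricter filter, against 393. The count was 1402 with the DESeq2 Wald test, 740 without a low-count filter and 20 with the replicate block, and from 0 to 3483 when 1 library was left out. Of the 10 genes, 1 (Gp2) was called under each of the 6 settings that kept all libraries without a block, 0 with the block, and 0 to 4 when 1 library was left out. In the block fit Gp2 had a log2 fold change of 2.78 (adjusted p = 0.085) and Muc2 an adjusted p of 0.11. The block also took the lists of other mucins, upstream signals, O-glycosylation enzymes, M cells and club cells from 1 called gene to 0, hillock and squamous genes from 3 to 0 and basal cell genes from 3 to 2. The numbers are not shown to pair the samples: the deviations of same-numbered libraries from their group means had correlations of -0.024, 0.019 and -0.11 across genes. Those of differently numbered libraries ran from -0.080 to 0.12. Since M3-CKO replicate 3 stood apart within its group, these correlations could hardly show a pairing and do not exclude one. Some log2 fold changes of genes that were not called changed sign; the cause was not tested. Leaving out 1 library gave a range of -0.11 to 0.85 for Muc4, -0.35 to 0.83 for Muc5ac, -1.50 to 0.37 for Agr2, -0.22 to 0.70 for Slc26a9, -0.090 to 0.76 for Nod2, -0.15 to 0.66 for Wee1 and -1.77 to 1.48 for Sgk1. Agr2 was 0.0074 with library size alone. With limma-voom Slc26a9 was -0.084, Wee1 -0.086 and Sgk1 -0.30. With the replicate block Wee1 was -0.029 and Sgk1 -0.62. Of the log2 fold changes of the named genes over the 13 alternatives, 395 kept direction and side of the threshold, 85 lost their call, 36 gained one and 17 changed sign. Il33, Stat6, Pigr and Kcnk5 are not among these. Depth limits Foxa3, Muc5ac and Spdef most.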
